A study of Mus musculus with 8 samples.

Results

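Cytochrome P450 genes were followed in livers of mice with and without Tgfbr1 in myeloid cells. Members were all genes whose whole symbol has the form of Cyp2e1: Cyp, a family number, a subfamily letter and a gene number. This gave 78 of the 23522 genes in the series, with 62 among the 15283 genes of bulk liver and all 78 among the 22578 genes of liver nuclei. The pattern left out 9 names of the same family, among them Cyp4a12a, Cyp4a12b and Cyp51. Bulk RNA-seq covered 3 liver libraries labelled control (flox/flox) and 3 labelled Tgfbr1 MKO (flox/flox; LysMcre), each called a liver here although the labels give replicate numbers and not animals. In single-nucleus RNA-seq each genotype was 1 pool of 3 livers, and the labels do not say whether these were the bulk livers. Every mouse, controls included, carried the floxed alleles and had eaten a MASH diet, a model of metabolic dysfunction-associated steatohepatitis, for 30 weeks. Age and sex of the mice are not given in the labels. LysMcre is a Cre recombinase driven from the myeloid Lyz2 locus, so hepatocytes, in which most P450 genes were read, are not the cells it targets.

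P450 enzymes are haem proteins that insert 1 atom of molecular oxygen into their substrate, using electrons passed on by P450 oxidoreductase (Por) or, in mitochondria, by adrenodoxin (Fdx1). In liver, families 1 to 3 oxidise drugs, toxins and some hormones, family 4 hydroxylates fatty acids and eicosanoids, and single-gene subfamilies build bile acids or clear vitamins and hormones. Hepatocytes around the central vein are known to carry more of the drug-metabolising enzymes than those around the portal vein, and several mouse P450 genes are known to differ between the sexes under control of growth hormone.

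Bulk libraries held 17448117 to 23986319 recovered reads, and a normalised value of 1 stood for about 1 read (1 read was worth 0.963 to 1.22). Tgfbr1 itself was read at 737, 810 and 777 in controls and at 560, 857 and 735 in MKO livers, and in macrophage-like nuclei at 13.5 (control pool) and 4.87 (MKO pool). Which exon is floxed is unknown here, and whole-gene values may not show its loss. Transcripts of Ddx3y, Uty, Eif2s3y and Kdm5d, which are Y-linked, were read in all 6 libraries at 323 or more, and Xist at 4.2 to 22.4. Of 10 macrophage markers 7 rose in MKO livers (limma), and their summed value was 3196 to 8625 in controls and 12687 to 19481 in MKO livers. Of 8 hepatocyte reference genes none was called, with a median log2 fold change of -0.04. In whole liver, fewer cells of a type and less RNA per cell cannot be told apart. Near-identical tandem copies in the Cyp2a, Cyp2b, Cyp2c, Cyp2d, Cyp3a, Cyp4a and Cyp4f subfamilies may share reads, so single values there are uncertain.

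The family as a whole took 2.21 to 2.89% of the reads of a library. Its summed normalised value was 509728, 560865 and 615135 in control livers and 526998, 505412 and 511009 in MKO livers, and the groups overlapped. The log2 ratio of the means was -0.13. Cyp2e1, which oxidises ethanol and small toxins, with the Cyp4a and Cyp3a members, made up 66.0 to 74.6% of that sum. Per kilobase of exon, the mean level over the 6 libraries was highest for Cyp2e1 (69763), followed by Cyp4a14 (46112), a fatty acid hydroxylase induced by PPARα. Cyp2d26 (9752 per kilobase) and Cyp3a11 (9619 per kilobase), the main inducible Cyp3a enzyme of mouse liver, lay well below these. At the other end was Cyp2b10, the classical target of the receptor CAR, with 0 to 4.2 in all 6 libraries. Cyp2b10 was thus at or near the level of single reads in both genotypes.

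No member passed limma's test between the genotypes. limma, fitted to log2(value + 1) over all 15249 genes with a mean of at least 1, called 0 of 62 members at an adjusted p under 0.05, against 3.05% of all genes. At an unadjusted p under 0.05 there were 7 members, 4 higher and 3 lower in MKO livers, where 12.1% of all genes passed. edgeR on recovered reads also called 0 (3.16% of all genes). DESeq2 called 2, both lower (4.49% of all genes): Cyp2r1 and Cyp2c67. Of the 60 members with an adjusted p in the authors' deposited table, 4 passed the same threshold, Cyp2c67, Cyp2r1 and Cyp2j5 lower and Cyp4f16 higher, against 5.76% of all genes. The median log2 fold change of the members was -0.14, against -0.02 over all genes tested, and 39 of 62 were negative. In 5 members all 3 MKO values lay above all 3 controls (10.4% of all genes did so), and in 8 all lay below (9.02%). Scaled to the hepatocyte reference genes, 3 lay above and 2 below, against 8.87 and 1.55% of all genes.

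**Figure D1:**
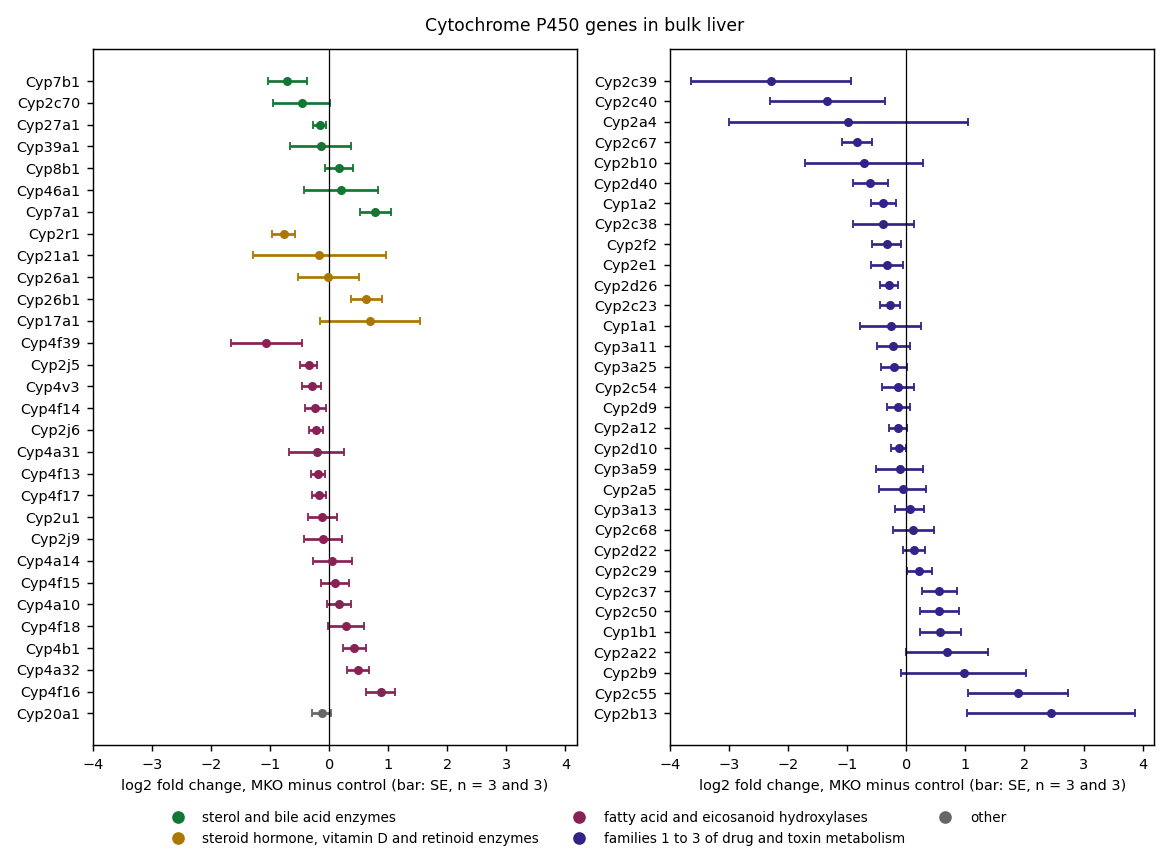
log2 fold change (x axis, MKO minus control, on the log2(value + 1) scale) of each of the 62 P450 genes in bulk liver (y axis), coloured by role, with bars for the SE (3 libraries in each group). Points lie on both sides of 0 in the 4 larger role groups, and the widest bars belong to Cyp2a4, Cyp2b13 and Cyp2c39.

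Among the 7 sterol and bile acid enzymes, Cyp7a1 stood higher and Cyp7b1 lower in MKO livers, without passing the test. Cyp7a1, the rate-limiting enzyme of classical bile acid synthesis (chromosome 4, 6265612 to 6275633, - strand), had normalised values of 2566, 1300 and 1878 in controls. The MKO livers had 2667, 4214 and 2843. The groups did not overlap, but the highest control and the lowest MKO liver were close. Control livers averaged 1915 ± 634 and MKO livers 3241 ± 847 (SD, n = 3 per genotype). On the log2 scale the difference was 0.78 with an SE of 0.26, the form in which later fold changes are given, and limma's adjusted p was 0.223. Nr0b2, the repressor SHP that restrains Cyp7a1, was read at 1074, 897 and 659 in controls and at 870, 366 and 398 in MKO livers (log2 fold change -0.77 ± 0.32, limma adjusted p = 0.384).

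Cyp7b1, the oxysterol hydroxylase of the alternative pathway (chromosome 3, 18071950 to 18243338, - strand), stood at 7107, 4117 and 3029 in controls and at 1827, 3336 and 3317 in MKO livers. The groups overlapped, and control 1 alone was far above the rest (log2 fold change -0.71 ± 0.33, limma adjusted p = 0.45; -0.37 without control 1). Cyp27a1, the mitochondrial enzyme that opens the alternative pathway, was at 4962, 5387 and 5292 in controls and at 4855, 4663 and 4471 in MKO livers. Its groups did not overlap, though the difference was small (log2 fold change -0.16 ± 0.11, limma adjusted p = 0.627). Cyp8b1, the sterol 12-hydroxylase that sets the share of cholic acid, overlapped, with 5441 to 9129 in controls and 5848 to 9663 in MKO livers. Cyp2c70, which makes muricholic acids in mice, was read at 2831, 2945 and 887 in controls and at 2270, 900.5 and 1376 in MKO livers. The role's median log2 fold change was -0.14, and it ranged from -0.20 without control 1 to 0.03 without control 3.

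Among the 5 measured enzymes of steroid hormones, vitamin D and retinoids, Cyp2r1 had the smallest p of all members. Cyp2r1, a vitamin D 25-hydroxylase (chromosome 7, 114549682 to 114562972, - strand), stood at 154, 156 and 127 in controls and at 85.4, 102 and 70.3 in MKO livers, with no overlap. The log2 fold change was -0.77 ± 0.19 (limma adjusted p = 0.0896; DESeq2 adjusted p = 0.0449). Cyp26b1, which breaks down retinoic acid, was read at 81.4, 79.8 and 81.8 in controls and at 186, 124 and 86.7 in MKO livers. All 3 MKO values were higher, with MKO 3 near the controls (log2 fold change 0.63 ± 0.26, limma adjusted p = 0.387). Cyp26a1, the other main retinoic acid hydroxylase of liver, overlapped (65.1 to 119 in controls, 47.2 to 225 in MKO livers). Cyp17a1, the 17-hydroxylase of steroid synthesis, spread over 85.4, 516 and 1519 in MKO livers around controls of 201, 323 and 246. MKO 1 was the lowest and MKO 3 the highest of the 6. Without MKO 1 its log2 fold change went from 0.69 to 1.81 (limma adjusted p = 0.0849).

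Among fatty acid and eicosanoid hydroxylases, Cyp4f16 stood higher and Cyp2j5 lower in MKO livers, without passing limma's test. Of the 17 measured, 3 had all MKO values above and 3 all MKO values below the controls (10.4 and 9.02% of all genes), and none was called by limma. Cyp4f16, a member of the leukotriene and fatty acid hydroxylases of family 4 (chromosome 17, 32536558 to 32551798, + strand), stood at 45.6, 72.4 and 61.1 in controls and at 90.3, 102 and 139 in MKO livers. Every MKO value was higher (log2 fold change 0.88 ± 0.24, limma adjusted p = 0.132). In the nuclei Cyp4f16 was highest in a cluster of plasmacytoid dendritic-like cells (0.476 in the control pool, 0.433 in the MKO pool). Macrophage-like nuclei had 0.235 (control) and 0.408 (MKO), and hepatocyte clusters 0.0368 or less. Macrophage markers were higher in the same MKO livers. The part of either cell type in the bulk values of Cyp4f16 was not tested.

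Cyp4a32 was read at 815, 839 and 788 in controls and at 913, 1070 and 1528 in MKO livers, with MKO 3 well above the rest (log2 fold change 0.49 ± 0.18, limma adjusted p = 0.293). Its abundant relatives did not share a gap between the groups. Cyp4a14 overlapped widely, at 89215, 107838 and 155818 in controls and at 83112, 147617 and 136018 in MKO livers (log2 fold change 0.05 ± 0.33), and so did Cyp4a10 (32250 to 47639 in controls and 41395 to 44538 in MKO livers). Cyp2j5, an arachidonic acid epoxygenase of hepatocytes, was read at 12711, 11688 and 9814 in controls and at 9025, 9433 and 8323 in MKO livers. All MKO values were below the controls (log2 fold change -0.35 ± 0.14, limma adjusted p = 0.366).

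**Figure D2:**
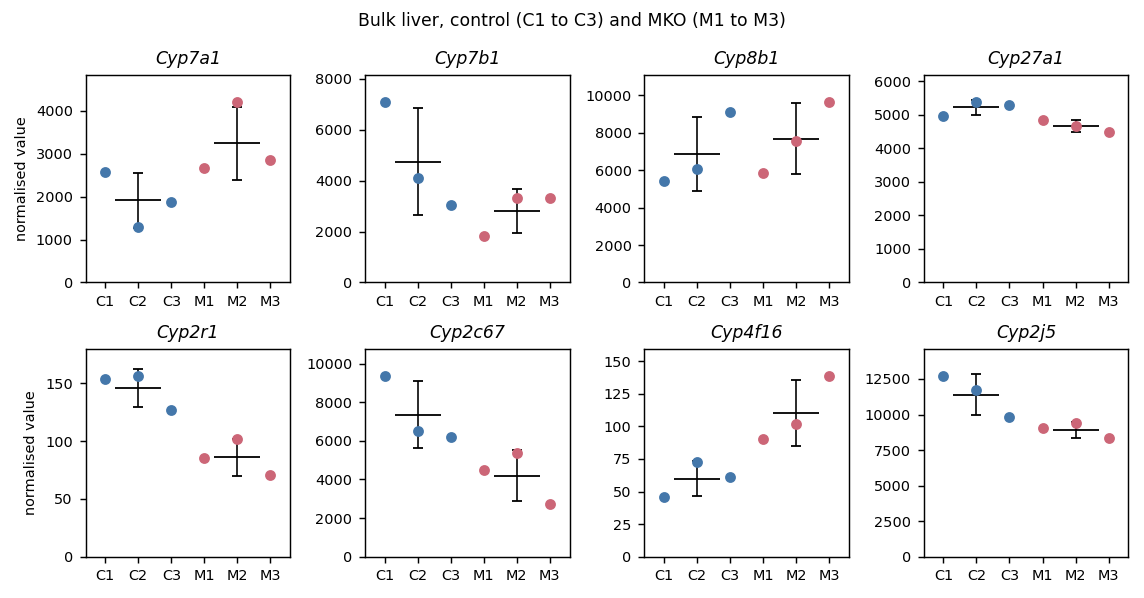
Normalised value (y axis) of 8 P450 genes in each bulk library (x axis, C1 to C3 control, M1 to M3 MKO), with the mean and SD of each group in black. In Cyp7a1 and Cyp4f16 all MKO points lie above the controls, in Cyp27a1, Cyp2r1, Cyp2c67 and Cyp2j5 all lie below, and in Cyp7b1 and Cyp8b1 the groups overlap.

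The largest role group was the 32 measured members of families 1 to 3. Where 12.1% of all genes had an unadjusted p under 0.05, it held 1 such member. This was Cyp2c67, an enzyme of the large Cyp2c array (chromosome 19, 39608842 to 39649051, - strand), at 9360, 6510 and 6186 in controls and at 4482, 5350 and 2754 in MKO livers. All MKO values were lower (log2 fold change -0.84 ± 0.26, limma adjusted p = 0.179; DESeq2 adjusted p = 0.0325). Cyp2d40 was read at 945, 850 and 407 in controls and at 526, 465 and 375 in MKO livers, so that control 3 lay among the MKO livers (log2 fold change -0.61 ± 0.30, limma adjusted p = 0.474). Without control 3 it was called (-0.99, limma adjusted p = 0.0313), the 1 call that leaving out a library produced. Cyp2c55 was near the level of single reads in controls (0, 2.10 and 11.8) and at 13.4, 12.2 and 9.63 in MKO livers (limma adjusted p = 0.433).

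The classical markers of drug metabolism were not called either. Cyp2e1 was read at 160206, 176652 and 164613 in controls and at 157853, 119196 and 124775 in MKO livers; MKO 1 was close to the controls and the other two were lower (log2 fold change -0.33 ± 0.27, limma adjusted p = 0.705). Cyp1a2, a target of the aryl hydrocarbon receptor, ranged from 4962 to 6176 in controls and from 3062 to 5652 in MKO livers. Cyp3a11 ranged from 38280 to 70945 and from 35520 to 56346. Cyp2f2, a periportal enzyme, ranged from 8256 to 11809 and from 5593 to 10615, and Cyp2c29 from 4045 to 6243 and from 4764 to 7626. Cyp1b1, an enzyme known from cells other than hepatocytes, was read at 51.0, 68.2 and 81.8 in controls and at 57.4, 139 and 120 in MKO livers (log2 fold change 0.58 ± 0.34, limma adjusted p = 0.579). Cyp20a1, an orphan P450, was at 194, 206 and 186 in controls and at 164, 162 and 217 in MKO livers. In all of these the ranges of the genotypes met or crossed, except Cyp2e1, whose highest MKO value lay just under the lowest control.

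P450 values spread widely among livers of one genotype. Of 52 members with a mean of at least 100, 17 (32.7%) differed more than 2-fold between the highest and lowest MKO liver and 7 (13.5%) between the highest and lowest control. Over 10182 genes of that level the shares were 5.44% and 3.33%. The median ratio of highest to lowest was 1.77 in MKO livers and 1.47 in controls for members, against 1.29 and 1.18 for all genes. No test was made of these shares. The first principal component of 57 members with a mean of at least 10 took 55.1% of their variance and did not divide the genotypes: MKO 1 lay at 6.71, MKO 3 at -8.62, and the other 4 livers between 0.03 and 1.28.

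In MKO 1, 7 of 14385 genes stood at least 5-fold above every other library, and 3 of them were P450 genes. Cyp2b9, a steroid hydroxylase known to be higher in female mice (chromosome 7, 26173411 to 26210661, + strand), stood at 4844 in MKO 1 and at 244, 350, 389, 353 and 145 in control 1 to 3, MKO 2 and MKO 3. Cyp2b13, its female-higher neighbour (26061497 to 26096197, + strand), stood at 510 in MKO 1 and at 2.17, 13.6, 4.93, 8.16 and 8.67 in the same order. Cyp2a22, further along the array (26931631 to 26939384, - strand), had 3643 in MKO 1 and 611, 461, 674, 499 and 434 elsewhere. These 3 genes were thus high in a single MKO liver and not in the other two, and none was called by limma (adjusted p = 0.791, 0.566 and 0.775).

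Cux2, a repressor known for its higher level in female mouse liver, was another of the 7 genes, with 355 in MKO 1 and 6.51 to 31.8 in the other libraries. The remaining 3 were Hamp2, Hao2 and Slc22a26, and these 3 with Cyp2b13 and Cyp2a22 are named here because their values stood out. The 4 Y-linked transcripts were read at 328 to 1478 in MKO 1 and at 323 to 1789 elsewhere, and Xist at 10.98 in MKO 1. Cyp2b10, on the other side of Cyp2b13 in the array, was at 3.66 in MKO 1, and Nr1i3, the receptor CAR, was highest there (16467, against 5972 to 9349). Members known to be higher in males were not called: Cyp7b1 was lowest in MKO 1, Cyp2d9 was read at 13377 there against 12924 to 19665, and Cyp4a12a, outside the pattern, at 5124 against 5927 to 9249. Cyp4a12b, also outside the pattern, was at 1726 in MKO 1 against 2214 to 4049. Cyp2u1, likewise known as higher in males, was at 1087 in MKO 1, within the 640 to 1287 of the other libraries. The part of Cux2 or Nr1i3 in these values was not tested.

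MKO 3 stood apart at the low end, where 3 of the 9 genes that stood at least 5-fold below every other library were P450 genes. Cyp2c39, a retinoic acid hydroxylase of the Cyp2c array (chromosome 19, 39510862 to 39568529, + strand), stood at 38.5 in MKO 3 and at 3736, 3423, 1374, 3300 and 1136 in control 1 to 3, MKO 1 and MKO 2. Cyp2c40 (39767071 to 39812814, - strand) had 3.85 in MKO 3 and 23.5 to 109 elsewhere. Cyp2a4, a testosterone hydroxylase also known to be higher in female mice and close in sequence to Cyp2a5 (chromosome 7, 26307169 to 26315088, + strand), was at the level of 1 read in MKO 3 (0.963). In the other libraries Cyp2a4 spread from 70.6 to 775, with 406 in MKO 1, so it was not high there with Cyp2b9 and Cyp2b13. No other library had a P450 gene that stood apart in this way.

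**Figure D3:**
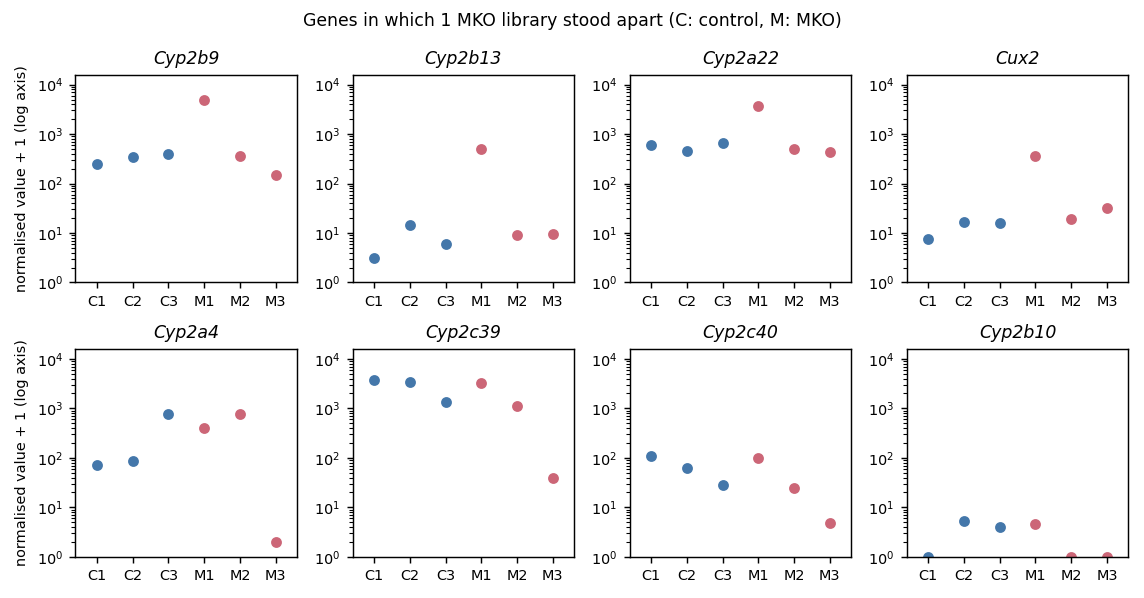
Normalised value + 1 on a log axis (y axis) in each bulk library (x axis, C1 to C3 control, M1 to M3 MKO) for the 6 P450 genes in which 1 MKO library stood at least 5-fold apart, with Cux2 and Cyp2b10 for comparison. M1 is alone at the top for Cyp2b9, Cyp2b13, Cyp2a22 and Cux2, M3 is alone at the bottom for Cyp2a4, Cyp2c39 and Cyp2c40, and Cyp2b10 is near 0 throughout.

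The 250 bases before the starts of the 3 genes high in MKO 1 are shown because they bear on whether these genes share upstream sequence, with Cyp2a4 beside them as a gene of the same array that was not high there. Sequences are RefSeq's (GRCm38.p6, the assembly of mm10), and 60 of the 78 members had an entry there. Windows run 5′ to 3′ on the gene's strand, at chr7:26173159-26173408 (+) for Cyp2b9, chr7:26061245-26061494 (+) for Cyp2b13, chr7:26939387-26939636 (-) for Cyp2a22 and chr7:26306942-26307191 (+) for Cyp2a4, each ending before RefSeq's start. GENCODE starts Cyp2a4 further upstream, so the last bases of its window lie in the first exon of that model. Capitals mark the 2 positions at which Cyp2b9 and Cyp2b13 differ, and in Cyp2a22 and Cyp2a4 the TATA element.
Cyp2b9: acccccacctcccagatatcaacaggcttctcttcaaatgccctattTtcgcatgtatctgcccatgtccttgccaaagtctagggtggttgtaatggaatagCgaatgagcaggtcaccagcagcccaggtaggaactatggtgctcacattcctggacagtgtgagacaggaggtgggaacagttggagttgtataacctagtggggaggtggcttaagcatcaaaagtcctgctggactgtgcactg
Cyp2b13: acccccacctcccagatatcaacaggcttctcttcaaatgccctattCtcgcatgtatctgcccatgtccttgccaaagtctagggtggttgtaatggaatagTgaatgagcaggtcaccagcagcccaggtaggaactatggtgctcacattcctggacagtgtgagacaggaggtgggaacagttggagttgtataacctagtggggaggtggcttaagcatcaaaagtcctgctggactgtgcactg
Cyp2a22: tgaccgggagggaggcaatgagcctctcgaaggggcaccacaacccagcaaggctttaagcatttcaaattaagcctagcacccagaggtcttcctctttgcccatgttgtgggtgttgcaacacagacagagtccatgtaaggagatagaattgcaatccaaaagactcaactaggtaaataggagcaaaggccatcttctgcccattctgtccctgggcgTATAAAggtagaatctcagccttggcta
Cyp2a4: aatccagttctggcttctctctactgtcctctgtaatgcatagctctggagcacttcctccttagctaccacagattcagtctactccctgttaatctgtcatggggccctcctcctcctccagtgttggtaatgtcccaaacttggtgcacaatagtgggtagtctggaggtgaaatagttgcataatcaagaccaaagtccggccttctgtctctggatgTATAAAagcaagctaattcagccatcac
The windows of Cyp2b9 and Cyp2b13 were identical at 248 of 250 positions (99.2%). Per kilobase of exon, the level in MKO 1 was 2582 for Cyp2b9 and 272 for Cyp2b13. Cyp2a22 shared 48.1% of aligned positions with Cyp2b9, no more than it shared with the Cyp2c windows (48.8 and 49.8%). In Cyp2a22 and Cyp2a4 the element TATAAA lay at the same place, 28 to 23 bases before RefSeq's start, although only one of them was high in MKO 1. TTCNNNGAA, the palindrome bound by STAT5, which carries the growth hormone signal, was in none of the 4 windows. Both strands were searched, and absence says only that these letters are not in the windows.

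Over the family, 66 windows of 250 bases were searched for 4 motifs, among them CAAAGTCCA, a core bound by HNF4, the nuclear receptor that maintains hepatocyte identity. It was in 7 of 66 member windows (10.6%) and in 126 of 32851 windows over all genes (0.384%). Each match is shown in capitals with 10 bases on each side, 5′ to 3′ on the gene's strand, because 4 of the 7 share their flanks. In GRCm38.p6 they lie on the - strand at chr19:39812841-39812869 (Cyp2c40), chr19:39649149-39649177 (Cyp2c67), chr19:39741160-39741188 (Cyp2c68), chr19:39886826-39886854 (Cyp2c69), chr19:40187332-40187360 (Cyp2c70), chr5:145879945-145879973 (Cyp3a11) and chr9:121916354-121916382 (Cyp8b1).
Cyp2c40: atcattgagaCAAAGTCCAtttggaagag
Cyp2c67: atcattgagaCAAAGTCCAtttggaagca
Cyp2c68: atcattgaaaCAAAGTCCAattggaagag
Cyp2c69: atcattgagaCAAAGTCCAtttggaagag
Cyp2c70: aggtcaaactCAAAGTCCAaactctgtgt
Cyp3a11: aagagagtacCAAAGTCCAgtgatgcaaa
Cyp8b1: agcctctgagCAAAGTCCAagggcaggaa
Those 4 are Cyp2c40, Cyp2c67, Cyp2c68 and Cyp2c69, tandem copies that share their sequence and so are not independent matches. The core began 45 bases before RefSeq's start in Cyp2c40, 125 in Cyp2c67, 77 in Cyp2c68 and 75 in Cyp2c69; in Cyp2c70, Cyp3a11 and Cyp8b1 it began 64, 109 and 67 bases before it. In GENCODE's model of Cyp3a11, which starts further upstream, the core lies inside the gene. Hnf4a was read at 11102 in MKO 1 and at 13911 to 17244 in the other 5 livers. In bulk liver, where 6 of the 7 were measured, their log2 fold changes lay on both sides of 0, from -1.34 (Cyp2c40) and -0.84 (Cyp2c67) to 0.12 (Cyp2c68) and 0.17 (Cyp8b1), with Cyp2c70 at -0.46 and Cyp3a11 at -0.22. TATAAA was in 23 of 66 member windows, against 12.4% of all windows, TTCNNNGAA in 3 (Cyp2j11, Cyp4b1 and Cyp4f13) against 7.02%, and the HNF1 palindrome in none.

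Genes that work with the P450 enzymes were not called by limma in any of 5 lists. Of 9 electron transfer partners, 1 was higher and 1 lower at an unadjusted p under 0.05, against 12.1% of all genes. Their median log2 fold change was -0.10. Por, which feeds electrons to every microsomal P450, was read at 5743, 6620 and 7269 in controls and at 7016, 9414 and 12488 in MKO livers. MKO 1 lay within the controls, and MKO 3 was highest (log2 fold change 0.53 ± 0.21, limma adjusted p = 0.348). Pgrmc2, a haem chaperone, was at -0.31 (limma adjusted p = 0.332). Of 12 genes of haem synthesis and breakdown (median -0.13), Hmox1, which degrades haem, was read at 362, 326 and 334 in controls and at 443, 474 and 1049 in MKO livers (log2 fold change 0.83 ± 0.29, limma adjusted p = 0.276; DESeq2 adjusted p = 0.0373). Fech, which inserts the iron in the last step that forms haem, was at -0.32 (limma adjusted p = 0.375).

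Among 26 receptors and regulators (median -0.12), Nr0b2 and Cux2 had the smallest p and were described above. Of 25 other oxidation and hydrolysis enzymes (median -0.19), 4 had all MKO values below the controls (9.02% of all genes). Aldh1a1, which oxidises retinal, was read at 27023, 27607 and 23713 in controls and at 19305, 18121 and 15462 in MKO livers (log2 fold change -0.57 ± 0.16, limma adjusted p = 0.124; DESeq2 adjusted p = 0.00284). Adh4, an alcohol and retinol dehydrogenase, was at -0.49 (limma adjusted p = 0.212). Of 46 conjugation enzymes and transporters, 13 had all MKO values below the controls and 1 had all above (9.02 and 10.4% of all genes), with a median of -0.22. Ugt2b35, a glucuronosyltransferase, was read at 3272, 3008 and 4303 in controls and at 1986, 2004 and 2605 in MKO livers (log2 fold change -0.68 ± 0.17, limma adjusted p = 0.0852). DESeq2 called 7 of these 46, all lower (0.328% of all genes were called lower): Ugt2b35, Ugt3a1, Abcg2, Sult2a8, Ugt2b34, Ugt2b5 and Slco1b2. Ugt3a1 was at -0.55 (limma adjusted p = 0.0982).

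In the nuclei, values are means per gene over the nuclei of 1 of 13 clusters and 1 pool, each column summing to 10000. There is 1 pool per genotype, so no difference between pools was tested. Clusters were named from marker genes enriched at least 2-fold over the other clusters. Cluster 0 was pericentral hepatocyte-like (10 of 10 markers, among them Glul and Cyp2e1), cluster 1 periportal hepatocyte-like (6 of 7, among them Sds and Cyp2f2), and cluster 3 hepatocytes with markers of both zones (5 of 10 and 6 of 7). All 3 had Cps1, Hnf4a and Apob among their enriched genes but not Alb. Alb was read in other clusters at 66.1% (control) and 81.8% (MKO) of its hepatocyte level, and Hnf4a at 6.66 and 4.76%, so hepatocyte transcripts were read in every column. Of the other hepatocyte reference genes, Apoc3 was at 113 and 98.9% and Serpina3k at 142 and 117%. Cps1, Apob, Ttr and Apoa1 lay between 3.95 and 75.3%. Scaling nucleus columns to these genes thus leans partly on transcripts that were not clearly higher in hepatocyte clusters.

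P450 transcripts were concentrated in hepatocyte clusters. Their summed value was 186 (control pool) and 195 (MKO pool) in cluster 0, 122 and 108 in cluster 1, and 81.9 and 133 in cluster 3, against 14.9 to 33.0 in all other clusters. Of 78 members, 51 (65.4%) had their highest value in a hepatocyte cluster in both pools, against 14.4% of all genes. For the 32 members with a hepatocyte mean of at least 0.5 in both pools, the median level in other clusters was 15.4% (control) and 12.8% (MKO) of the hepatocyte level. It was lowest for Cyp3a59 in the control pool (4.19%) and Cyp2b9 in the MKO pool (1.86%), and highest for Cyp4f13 (59.4%) and Cyp3a11 (72.2%). These percentages lie between those of Hnf4a and Alb for most members, so for these 32 a median level outside hepatocytes is not by itself read as expression. Single clusters were not even, however. Cyp2d22 was at 0.979 in bile duct-like and 0.188 in macrophage-like nuclei of the control pool, and at 1.856 and 0.0821 in the MKO pool. Cyp27a1 was at 1.634 in plasmacytoid dendritic-like and 0.0721 in vascular endothelial-like nuclei (control), and at 1.743 and 0.322 (MKO). Whether such values come from these cells was not tested.

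**Figure D4:**
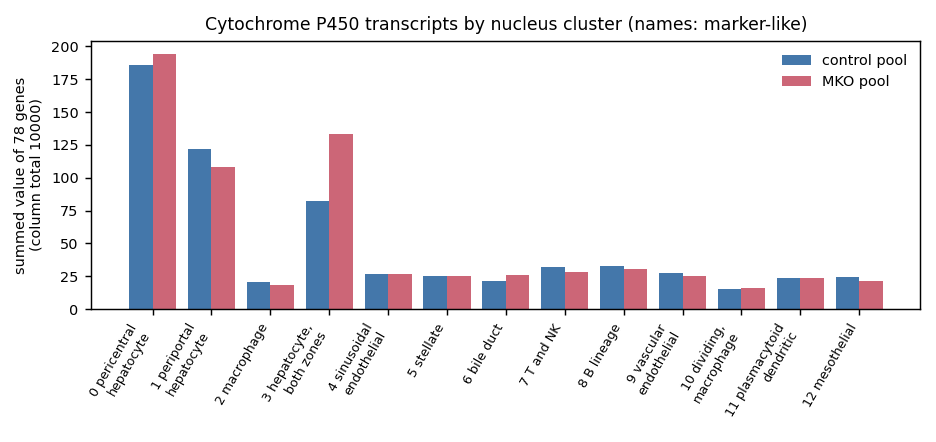
Summed value of the 78 P450 genes (y axis, of a column total of 10000) in each nucleus cluster (x axis, named by the cell type its markers resemble) in the control and MKO pools, 1 pool each. The 3 hepatocyte clusters reach 81.9 to 195 and all others 14.9 to 33.0, and the pools differ most in cluster 3.

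Another 11 members (14.1%, against 31.8% of all genes) were highest in the same other cluster in both pools. Cyp20a1 was highest in stellate-like nuclei, at 3.56 (control) and 3.23 (MKO), against 0.184 or less in hepatocyte clusters. Sinusoidal endothelial-like nuclei had the highest Cyp4b1 (2.13 and 2.66) and Cyp26b1 (1.09 and 1.42). Cyp1b1 (0.356 and 0.657) and Cyp1a1 (0.264 and 0.291) were highest in vascular endothelial-like nuclei, and Cyp2s1 (2.36 and 2.05) in mesothelial-like nuclei. All 6 were read at 0.184 or less in every hepatocyte cluster of either pool. Cyp4f18, a leukotriene hydroxylase of leukocytes, was highest in B lineage-like nuclei (0.814 and 0.841) and Cyp4f16 in plasmacytoid dendritic-like nuclei (0.476 and 0.433). Cyp4x1 (0.0278 and 0.0798) and Cyp2j13 (0.0447 and 0.026) in bile duct-like nuclei and Cyp2t4 in macrophage-like nuclei (0.00583 and 0.00433) were very low. In bulk liver Cyp4b1, whose MKO values did not overlap with controls (97.7, 96.6 and 113 against 176, 125 and 118), had a log2 fold change of 0.43 ± 0.20 (limma adjusted p = 0.444).

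Several members differed between the pericentral and periportal clusters in both pools. Of 41 members that reached 0.5 in cluster 0 or 1, 12 (29.3%) were over 2-fold higher in cluster 0 in both pools and 2 (4.88%) over 2-fold higher in cluster 1 in both, against 1.52 and 0.972% of 4525 genes at that level. The steepest pericentral ratios were those of Cyp2c38 (85.3 in control, 58.0 in MKO), Cyp2b13 (79.2 and 54.2) and Cyp2c39 (56.9 and 105). Cyp2b13, counted among the 12, reached 0.5 only in cluster 0 of the MKO pool (0.919). Its control ratio rests on very low values, 0.0625 in cluster 0 and 0.000789 in cluster 1. Cyp2a5 (22.3 and 7.86) and Cyp2c29 (16.5 and 7.47) followed with a smaller ratio in the MKO pool, and Cyp2b9 (16.0 and 39.6) with a larger one. Cyp2u1, a fatty acid hydroxylase, was periportal in both (0.446 and 0.331), as was the marker Cyp2f2. The ratio crossed 1 between the pools in 10 of 41 members (24.4%, against 37.8% of all genes at that level). In 3 of these it had been over 2-fold in the control pool (7.32% of the 41, against 0.464% of all genes at that level). Cyp2c70 was at 0.181 (control) and 2.35 (MKO), Cyp2d9 at 2.39 and 0.81, and Cyp7a1 at 2.49 and 0.977. Clusters were formed from the same genes, so these ratios are a description.

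Between the pools, Cyp2b9 in cluster 0 and Cyp7a1 in clusters 1 and 3 were among the members over 2-fold higher in the MKO pool. Only genes that reached, in either pool, the 90th percentile of a cluster's non-zero levels were compared, after adding a constant of 0.122 to 0.124 to both values. A member admitted through 1 pool alone had to differ, which held for 1 of 4 members past 2-fold in cluster 0, 1 of 3 in cluster 1 and 5 of 8 in cluster 3, so the counts are a description. In cluster 0, 4 of 27 members were over 2-fold higher and none over 2-fold lower in the MKO pool, against 1.96 and 1.48% of 2088 genes. Cyp2b9 went from 2.22 (control) to 13.4 (MKO) and Cyp2c70 from 0.290 to 2.22. Cyp2c38 went from 7.41 to 19.1 and Cyp2c68 from 1.65 to 4.03. Among the admitted members in these nuclei, Cyp2b9 had the largest log2 ratio after the added constant (2.53), just above Cyp2c70 (2.51). Cyp2b9 was also 1 of the 3 members that MKO 1 alone carried at a high level in bulk liver. Cyp2b13, below the level admitted, was at 0.0625 and 0.919 in the same nuclei, Cux2 at 0.00979 and 0.400, and Cyp2a22 at 0.741 and 0.936. Nr1i3, also highest in MKO 1 in bulk liver, was at 9.05 (control) and 8.70 (MKO) there. Since the pool holds 3 livers, how many of them carried the high values cannot be told apart. Alb in cluster 0 was 24.7 (control) and 58.6 (MKO), and with columns scaled to hepatocyte reference genes the count became 2 higher and 6 lower of 28. The share of all genes under this scaling is not given here, so whether the members moved with all genes is left unsaid.

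In cluster 1, 2 of 22 members were over 2-fold higher and 1 over 2-fold lower (1.67 and 1.47% of 2040 genes). Cyp7a1 went from 1.69 to 3.82 and Cyp2d9 from 1.55 to 3.23, while Cyp3a59 went from 2.10 to 0.852. Counts here moved with the level admitted, to 4 and 4 of 32 from the 80th percentile up and to 1 and 0 of 14 from the 95th, and scaled to hepatocyte reference genes none was higher and 2 were lower. In cluster 3, 8 of 22 members were over 2-fold higher and none lower (3.99 and 3.5% of 2056 genes). The largest ratios were those of Cyp7a1 (0.323 to 2.42), Cyp2c29 (0.340 to 1.55), Cyp2f2 (0.855 to 2.75), Cyp2d9 (1.11 to 3.45) and Cyp4a32 (3.10 to 8.72). The others were Cyp4a14, Cyp4v3 and Cyp4a10, the first of these from 15.1 to 32.2. Of the 8, only Cyp4a32, Cyp4a14 and Cyp4a10 reached the admitted level in both pools. Scaled to hepatocyte reference genes, 2 were higher and 1 lower of 18. Shares of all genes are not given here for the other settings in clusters 1 and 3.

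**Figure D5:**
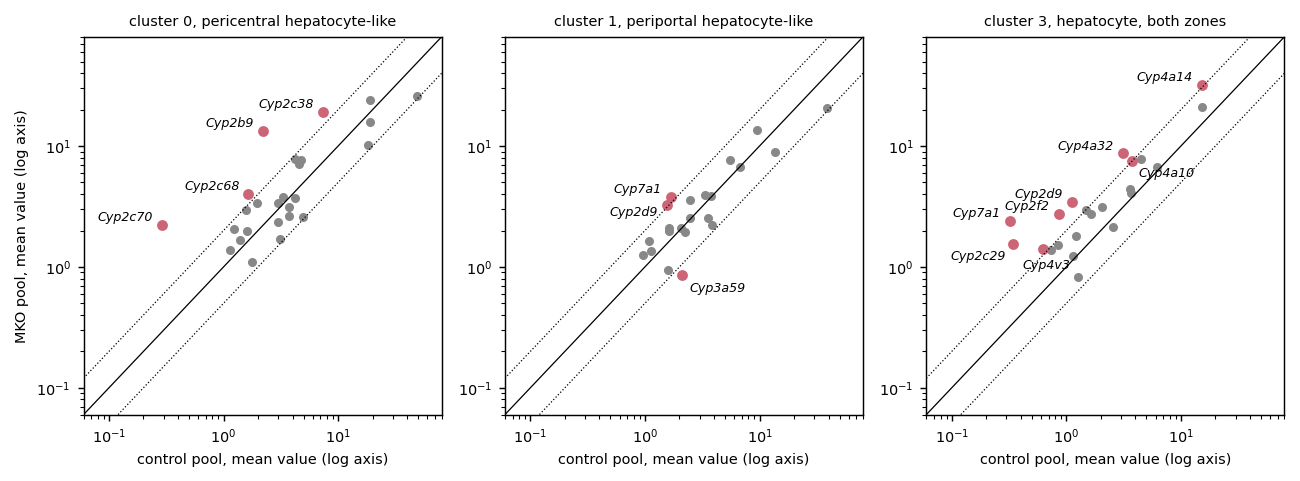
Mean value of each P450 gene in the MKO pool (y axis, log) against the control pool (x axis, log) in the 3 hepatocyte clusters, with the line of equality and dotted lines at a 2-fold difference. Named red points are past 2-fold after the added constant: 4 above the line in cluster 0, 2 above and 1 below in cluster 1, and 8 above in cluster 3.

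Bulk liver and nuclei can be set side by side for the members that stood out in either. Cyp7a1 was higher in the MKO pool in clusters 1 and 3, lower in cluster 0 (4.21 to 3.73), and had all bulk MKO values above the controls. Cyp2c67 was higher in the MKO pool in cluster 0 (1.97 to 3.35) and in cluster 3 (0.838 to 1.51) but lower in cluster 1 (0.968 to 0.764) and in bulk MKO livers. Cyp2j5 was higher in the MKO pool in clusters 0 (4.55 to 7.58) and 3 (3.62 to 4.42), nearly level in cluster 1 (6.74 to 6.69) and lower in bulk. Cyp2r1 was at 0.160 or less in the hepatocyte clusters of either pool, too low for a ratio. Cyp3a25, the P450 gene with the highest nuclear value, was lower in the MKO pool in clusters 0 (49.1 to 26.03) and 1 (38.5 to 20.5) and higher in cluster 3 (15.2 to 20.9). In bulk liver Cyp3a25 ranged from 10513 to 13053 in controls and from 8038 to 14854 in MKO livers, and the groups overlapped.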

How the data were processed

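Liver RNA was measured in 3 control and 3 MKO bulk libraries and in 1 nucleus pool per genotype. The bulk signal deposited by the authors is counts scaled by a library's size factor: 100% of values were whole multiples of 1 read within 0.01, and the reads so recovered (17448117 to 23986319 per library) were tested as alternatives. The authors' deposited table also gives log2 fold changes and p-values, used for the count of calls and beside it. The nucleus signal deposited by the authors is a mean per gene, cluster and pool with column sums of 10000; the sources used here do not give the number of nuclei, filters or doublet treatment, and its depth is unknown. The build was mm10 and the tools included Seurat 4.0.1, Cell Ranger, RSEM 1.3.3, STAR and DESeq2, per the submitters' processing notes; annotation and counting settings are not given there.

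limma 3.58.1 (trend, R 4.3.3) was fitted to log2(value + 1) over genes with a mean of at least 1, with Benjamini-Hochberg adjustment over all of them and a threshold of 0.05. Log2 fold changes of low genes on this scale could be smaller or larger than those of the other tools. Cyp2b13 had 2.45 with limma, 4.64 with edgeR and 4.68 with DESeq2, and Cyp2c55 had 1.89, 1.27 and 1.33. edgeR 4.0.16 and DESeq2 1.42.0 were run on recovered reads, and all 3 were tested on simulated data. The labels number the replicates without saying whether they are separate animals; p-values refer to the spread between these libraries only. No 2 libraries of a genotype matched within sampling noise (chi-square over its degrees of freedom, 29.65 to 76.97). Members, roles and gene lists were chosen with earlier results of these data known. Named genes were the 3 members with the smallest p in each role, a list of well-known members, members past 2-fold in hepatocyte nuclei or highest in another cluster, and up to 2 companions of each list; others are named because their values stood out, such as Cyp2a4, Cyp2c39, Cyp2c40, Cyp3a25 and Cyp4b1. Coordinates and exon lengths are from GENCODE M21 (mm10), promoters from RefSeq. A cluster took a cell type's name only where at least 3 of its markers were enriched 2-fold, but not every such type gave a name. The mesothelial-like cluster (7 of 7 markers) also had 3 of 7 bile duct markers enriched. The sinusoidal endothelial-like cluster (8 of 8) also had 3 of 7 vascular endothelial markers.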

Additional observations from a re-analysis of the deposited data

How the results depend on the processing

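The 3 libraries per group limit the precision of bulk values, and nucleus values have no replicate. The count of members called by limma was 0 with all 6 libraries and under every other pseudocount, filter and the replicate block (0 called); DESeq2 called 2, and leaving out 1 library gave 0 to 1. Same-numbered samples did not deviate together over all genes (correlations 0.08, -0.02 and -0.11). The labels do not say whether equal numbers pair the samples, and these correlations cannot decide it. The median log2 fold change of members kept its sign in every alternative run (-0.22 to -0.06). Members whose groups did not overlap went from 13 to 5 under hepatocyte reference scaling. The shares of all genes fell as well, from 10.4 to 8.87% (MKO higher) and from 9.02 to 1.55% (MKO lower). Leaving out 1 library moved role medians between -0.16 and -0.045 for fatty acid and eicosanoid enzymes, -0.27 and 0.53 for steroid, vitamin D and retinoid enzymes, and -0.20 and 0.027 for sterol and bile acid enzymes. DESeq2 called 1 companion of haem metabolism, 1 of other oxidation and 7 of conjugation and transport, where limma called 0. Of 401 alternative fits of 31 named members, 3 passed the threshold and 20 had the other sign. Members past 2-fold in nuclei, in either direction, changed with the settings. In cluster 0 they went from 4, all higher in the MKO pool, to 8, most of them lower there, with hepatocyte reference scaling. In cluster 1 they went from 3 to 8 (80th percentile), 1 (95th percentile) and 1 (constant of 1/3 of the level admitted). In cluster 3 they went from 8 to 5 (95th percentile) and 3 (hepatocyte reference scaling). Shares of all genes under these settings are not given here, so these nucleus counts are a description.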
